A study of Gallus gallus with 4 samples.

Results

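Genes of 4 axon guidance systems were followed across the optic tectum of the chick embryo, a part of the midbrain where retinal axons end. They were the repulsive guidance molecule RGMA and its receptor NEO1, the class 3 semaphorins SEMA3A and SEMA3D with their receptors NRP1 and NRP2, the receptor phosphatase PTPRO, and the adhesion molecule CNTN1. The 8 genes were chosen by name, with earlier results of these data known, out of 8584 genes with a symbol on the array. They were represented by 9 of 42034 gene probes, 8 found by gene name and 1 by its description alone. The latter, a further probe described as a SEMA3D homologue, stood well above background on none of the 4 arrays and gives no value here. The other 8 probes, 1 per gene, exceeded the background limit on all 4 arrays in at least 1 channel, and none had a saturated pixel.

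RGMA is a membrane protein held by a lipid anchor that repels growing axons through neogenin, the product of NEO1, and it was isolated from chick tectum as a candidate cue for the ordered map of retinal axons. Class 3 semaphorins are secreted ligands that turn or stop growth cones by binding neuropilins (NRP1, NRP2), which pass the signal to plexins. PTPRO removes phosphate from Eph receptors, the sensors of the ephrin gradients of the tectum, and CNTN1, called F11 in chick, is a lipid-anchored adhesion molecule of the immunoglobulin superfamily carried on axons.

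Each of 4 two-colour microarrays compared RNA from a Cy5-labelled pool of 60 bisected tectal pieces with RNA from a Cy3-labelled pool of 60 opposite pieces. No treatment is labelled. Embryos at Hamburger-Hamilton stages HH35 and HH37 gave posterior (Cy5) and anterior (Cy3) pools, and embryos at HH30 and HH35 gave medial and lateral pools. Each axis and stage was 1 array, without replicates or dye swaps, so a value of a single array has no replicate check and their number limits the precision. On the mediolateral arrays the dye labels call Cy5 medial, whereas the authors' deposited ratio of medial over lateral runs with Cy3 over Cy5. The direction is therefore not settled, and those arrays are given by channel with no side named. The pools hold all cells of a piece, so that fewer cells of a type and less RNA per cell cannot be told apart.

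Between 63.2% and 79.5% of gene probes exceeded the background limit on an array in at least 1 channel, the fewest on the anteroposterior array at HH37, which was also the dimmest. Fewer probes exceeded it in Cy5 than in Cy3 on every array. On the anteroposterior arrays the shares were 59.5% and 79.4% at HH35, and 41.2% and 63.2% at HH37. A posterior signal under the limit therefore does not by itself show low posterior expression. Control spots repeated within an array had an SD of the log2 ratio between 0.11 and 0.15, a spread of spots and not of tissue. Of the 7 tectum and midbrain markers with a named probe, 7 were above background on both anteroposterior arrays, LHX9, TFAP2B and GATA3 among them. Ratios below are log2 of Cy5 over Cy3 after loess normalisation, which on the anteroposterior arrays is posterior over anterior, and net intensities are the spot's mean foreground less its median background, in linear scanner units. Net intensities are not normalised, so the printed ratios do not follow from them directly.

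The ligand RGMA was slightly higher in the posterior pool at HH35 and higher in the anterior pool at HH37. Its net intensity was 25354 posteriorly and 20088 anteriorly at HH35, and 1696 posteriorly and 4086 anteriorly at HH37. After background correction and normalisation the log2 ratios were 0.28 and -1.05, that is 1.21-fold to the posterior side and 2.06-fold to the anterior side. At HH35, 83.3% of the measured probes had a lower ratio than RGMA, and at HH37 1.41% did. The authors' deposited table gave anterior over posterior ratios of 0.776 at HH35 and 1.67 at HH37, with the same turn in direction. Those ratios come from the same arrays and are no independent check. RGMA was nearly even on the mediolateral arrays, at 0.05 at HH30 (net intensities of 9930 in Cy5 and 8587 in Cy3) and 0.06 at HH35 (6363 and 5225).

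SEMA3A, the secreted ligand first purified from chick brain as collapsin, was higher in the anterior pool at both stages. SEMA3A had a net intensity of 866 posteriorly and 2191 anteriorly at HH35, and 161 and 422 at HH37. The log2 ratios were -0.94 and -0.70, or 1.92-fold and 1.62-fold higher anteriorly. Along the other axis SEMA3A was higher in the Cy5 pool at HH30, at 0.49 (1063 in Cy5 and 742 in Cy3), where 97.4% of measured probes had a lower ratio. At HH35 it was even, at -0.0094 (228 and 233). SEMA3A thus stood on the Cy3 side of both anteroposterior arrays but not of the mediolateral array at HH30.

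SEMA3D, the other class 3 semaphorin of the group, had the most anterior ratio of the 8 genes at HH35 and was a dim probe throughout. It had a net intensity of 216 posteriorly and 874 anteriorly at HH35, a log2 ratio of -1.44 or 2.71-fold, and only 0.0689% of measured probes had a lower ratio. At HH37 the net intensities were 42 and 85 and the posterior signal was under the background limit, so the size of the anterior excess is uncertain. The anterior value was 1.29-fold above the higher of the probe's own posterior signal and the lowest posterior signal of a probe well above background. That is no lower bound, since the background limit of the spot itself was not used. The authors' deposited table gave anterior over posterior ratios of 2.96 at HH35 and 2.67 at HH37, whereas the ratio computed here at HH37 was -0.41 on the log2 scale. It was -0.79 with plain background subtraction, so the size at HH37 depends on how the background was handled. In both mediolateral comparisons SEMA3D lay on the Cy3 side, at -0.44 at HH30 (126 in Cy5 and 190 in Cy3) and -0.28 at HH35 (77 and 100). SEMA3D and SEMA3A lie near each other on 1 chromosome of the GRCg7b assembly, with 2 genes between them, of which 0 code for protein.

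**Figure D1:**
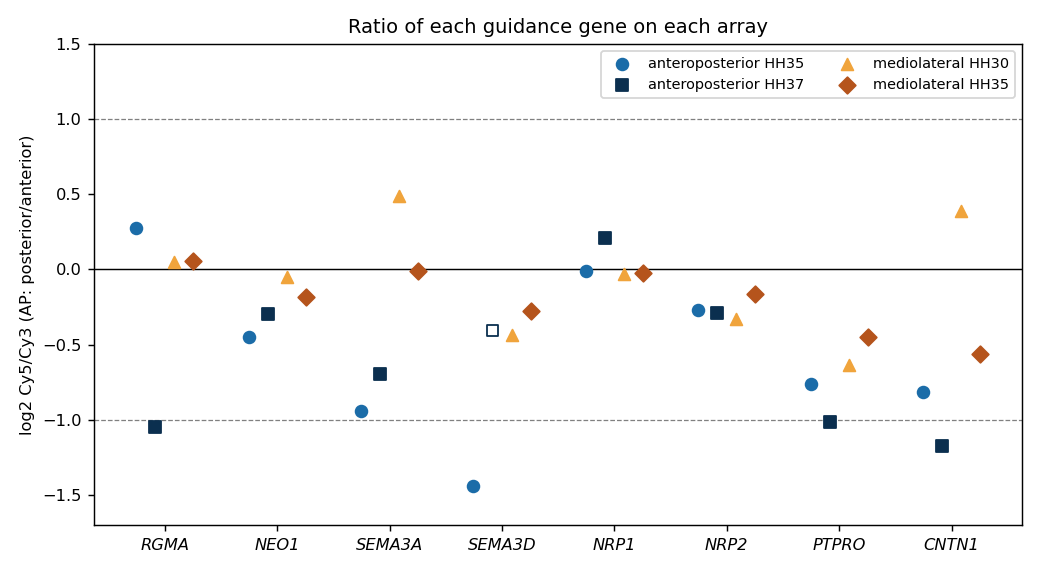
The log2 ratio of Cy5 over Cy3 (vertical axis) of the 8 genes (horizontal axis) on each of the 4 arrays, 1 point per array, with dashed lines at 2-fold. The open symbol is the ratio of SEMA3D at HH37, whose posterior signal was under the background limit. SEMA3A, SEMA3D, PTPRO and CNTN1 sit well below 0 on the anteroposterior arrays, RGMA lies on opposite sides of 0 at HH35 and HH37, and NRP1 stays near 0.

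The receptor NEO1 was higher in the anterior pool at both stages, by less than the ligands SEMA3A and SEMA3D at HH35. Its net intensity was 7670 posteriorly and 11251 anteriorly at HH35 and 235 and 432 at HH37. After background correction and normalisation the log2 ratios were -0.45 and -0.29. At HH37 the ratio was -0.71 with median centring and -0.27 with plain background subtraction, so its size depends on the processing. Along the mediolateral axis it stood at -0.05 at HH30 (1769 in Cy5 and 1803 in Cy3) and -0.19 at HH35 (1835 and 1992). RGMA and its receptor therefore lay on opposite sides of 0 at HH35 and on the same, anterior, side at HH37.

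NRP1, the neuropilin that binds SEMA3A, was the most even of the 8 genes. Its net intensity was 16006 posteriorly and 16178 anteriorly at HH35 and 20969 and 17629 at HH37, with log2 ratios of -0.01 and 0.21. The mediolateral ratios were -0.03 at HH30 (20639 in Cy5 and 17967 in Cy3) and -0.03 at HH35 (32907 and 24687). Of these 4 ratios, that at HH35 on the anteroposterior array and both mediolateral ones changed sign with median centring in place of loess, to 0.06, 0.11 and 0.30, so no direction is given for them. NRP2, the other neuropilin, lay on the Cy3 side of all 4 arrays by small amounts. Its anteroposterior net intensities were 9865 posteriorly and 12493 anteriorly at HH35 and 1756 and 2533 at HH37, with log2 ratios of -0.27 and -0.29. NRP2 was at -0.33 on the mediolateral array of HH30 (2821 in Cy5 and 3426 in Cy3) and -0.17 at HH35 (2249 and 2365).

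PTPRO was higher in the anterior pool at both stages and was also higher in the Cy3 pool on both mediolateral arrays. Its net intensity was 4761 posteriorly and 9113 anteriorly at HH35, a log2 ratio of -0.77, and 553 and 1495 at HH37, a ratio of -1.01. The anterior excess was 1.70-fold and 2.02-fold. On the mediolateral arrays it stood at -0.64 at HH30 (1045 in Cy5 and 1644 in Cy3) and -0.45 at HH35 (1303 and 1744), where 0.798% and 3.38% of measured probes had lower ratios. With no dye swap, a dye effect of the probe cannot be told apart from a difference between the pools for any gene here. That holds along the anteroposterior axis for SEMA3A, CNTN1 and RGMA too. Like PTPRO, NEO1, NRP2 and SEMA3D lay on the Cy3 side of all 4 arrays. For NEO1 the mediolateral ratio at HH30, -0.05, was smaller than the SD of control spots on that array, 0.12. The share of all probes on the Cy3 side of all 4 arrays is not given here.

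CNTN1 was higher in the anterior pool at both stages, and its mediolateral ratio was on opposite sides of 0 at the 2 stages measured. The net intensity of CNTN1 was 6815 posteriorly and 12875 anteriorly at HH35 and 854 and 2424 at HH37. The log2 ratios were -0.81 and -1.18, or 1.76-fold and 2.26-fold higher anteriorly. Mediolaterally CNTN1 was at 0.39 at HH30 (2423 in Cy5 and 1800 in Cy3), where 95.2% of measured probes had a lower ratio, and at -0.56 at HH35 (823 in Cy3, 1.47-fold above Cy5 after normalisation), where 1.05% did. The authors' deposited table, made from the same arrays, turned in the same way, with ratios running as Cy3 over Cy5 of 0.752 and 1.54.

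Counted by array, 7 of the 8 genes were higher in the anterior pool at HH35, all but RGMA, and 7 of 8 at HH37, all but NRP1. NRP1's ratio at HH35 was the one among them whose sign changed with the processing. At -0.01 it lay near the middle of the array, with 50.2% of measured probes lower. SEMA3A, SEMA3D, PTPRO, CNTN1, NEO1 and NRP2 were anterior at both stages, as were 35.5% of all tested probes. At a difference of at least 2-fold there was 1 gene on the anterior side at HH35, SEMA3D, where 0.632% of measured probes were, and there were 3 at HH37, RGMA, PTPRO and CNTN1, where 1.78% were. None reached 2-fold on the posterior side, where 0.15% and 0.0941% of probes did, which makes 0.781% and 1.87% in either direction. Nor did any on the mediolateral arrays, where 0.265% of probes at HH30 and 0.0672% at HH35 did so in Cy5 and 0.0611% and 0.0269% in Cy3, or 0.326% and 0.094% in all. The median ratio of the 8 genes was -0.61 at HH35 and -0.55 at HH37, beside -0.01 and -0.03 over all measured probes. On the mediolateral arrays it was -0.04 at HH30 and -0.18 at HH35, beside -0.02 and -0.02.

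The ratios of both stages of an axis were then tested jointly in limma's moderated test over all probes, with 1 coefficient per axis. The stages thus served as the 2 observations of the axis, and differences between stages entered the error. Both axes shared 1 estimate of a probe's spread. The SE of an axis therefore also rests on the stage difference along the other axis. PTPRO, SEMA3A, SEMA3D and CNTN1 were higher anteriorly over HH35 and HH37. The mean log2 posterior over anterior ratio was -0.89 ± 0.15 for PTPRO (SE, n = 2 arrays, limma adjusted p = 0.0144) and -0.82 ± 0.16 for SEMA3A (limma adjusted p = 0.0212). It was -0.99 ± 0.20 for CNTN1 (limma adjusted p = 0.0227) and -0.92 ± 0.20 for SEMA3D (limma adjusted p = 0.0275), the last with the ratio at HH37 entered as computed. The SEMA3D probe passed the background filter at HH37 through the anterior channel alone. With both channels required it had no anteroposterior fit, while PTPRO, SEMA3A and CNTN1 were still called. The 4 of 8 genes called in the main fit stand against 5.1% of the 25477 probes tested that were called higher anteriorly, 0.475% being called posteriorly and 5.58% in all. The genes were chosen with earlier results of these data known, so the comparison is a description and no test of the group. The median of the 8 means was -0.60, beside -0.02 over all probes tested. RGMA, at -0.38 ± 0.23 (limma adjusted p = 0.298), NEO1, at -0.37 ± 0.15 (limma adjusted p = 0.133), and NRP2, at -0.28 ± 0.15 (limma adjusted p = 0.229), did not pass. For NRP1 the mean was 0.10 with a 95% interval from -0.22 to 0.42 (limma adjusted p = 0.683).

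These 4 calls depended on the processing and on single arrays. None was made with plain background subtraction, with limma adjusted p between 0.0701 and 0.0844, nor from the authors' value table, between 0.174 and 0.180, although the means were of similar or larger size. With plain subtraction they were -0.88 for SEMA3A, -1.20 for SEMA3D, -0.84 for PTPRO and -0.94 for CNTN1, and in the value table -0.90, -1.49, -0.88 and -0.87 in the same order. SEMA3D was also not called without the filter on dim probes (limma adjusted p = 0.0572). Without the HH35 array, SEMA3A (limma adjusted p = 0.0714) and SEMA3D (0.214) were not called, while RGMA was, at its HH37 ratio of -1.05 (0.0120). Without the HH37 array, PTPRO (limma adjusted p = 0.0587) and CNTN1 (0.115) were not called. In these fits the array left alone was assumed to vary like the others. NEO1 was called, at -0.59, with median centring alone (limma adjusted p = 0.0208), which also moved the median of all measured probes at HH37 by -0.16.

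Markers of maturing neurons moved to the anterior pool beside these genes. Of the 10 marker genes with a probe, 9 were higher anteriorly at HH35 (median -0.55) and 10 at HH37 (median -1.56). Of these, 7 were called higher anteriorly, among them the microtubule protein gene MAP1B at -1.66, the neurofilament gene NEFM at -1.34 and doublecortin, DCX, at -1.05. The other probes of DCX gave -0.54, -1.02 and -0.26 at HH35 and -1.16, -0.73 and -0.04 at HH37. The summed net intensity of the markers was 181833 and 23454 in the posterior pools of HH35 and HH37, and 228329 and 72395 in the anterior pools. On the mediolateral arrays their medians were 0.23 at HH30, where CNTN1 and SEMA3A also stood on the Cy5 side, and -0.42 at HH35. Of the marker list 0 genes were below background on all arrays. Neural progenitor markers, 12 with a probe, had medians of 0.48 at HH35 and -0.38 at HH37, and MSI1 alone of 11 tested was called, posteriorly at 0.66. At HH35 9 were on the posterior side and 3 on the anterior, and at HH37 4 and 7. FABP7 (-0.43 and -0.40) and SLC1A3 (-0.20 and -0.90) were anterior at both stages. The summed net intensity of the progenitor markers, which is not normalised, was 43933 and 9680 posteriorly and 45941 and 14671 anteriorly. Of the 7 tectum and midbrain markers 4 were called higher anteriorly, LHX9, TFAP2B, GATA3 and MEIS2, with list medians of -0.47 and -0.75. In that list 5 were on the anterior side at HH35 and 7 at HH37, with DMBX1 (0.07) and GATA2 (0.29) posterior at HH35. Blood markers, 3 with a probe, had medians of 0.03 at HH35 and -1.33 at HH37, and 0 passed. Of these, HBE1 went the other way, at 0.30 and 0.43. In the other 6 marker lists MBP, a myelin gene of the oligodendrocyte list, alone passed, posteriorly at 0.77 (limma adjusted p = 0.0461). The part of these cell types in the ratios of the guidance genes was not tested.

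**Figure D2:**
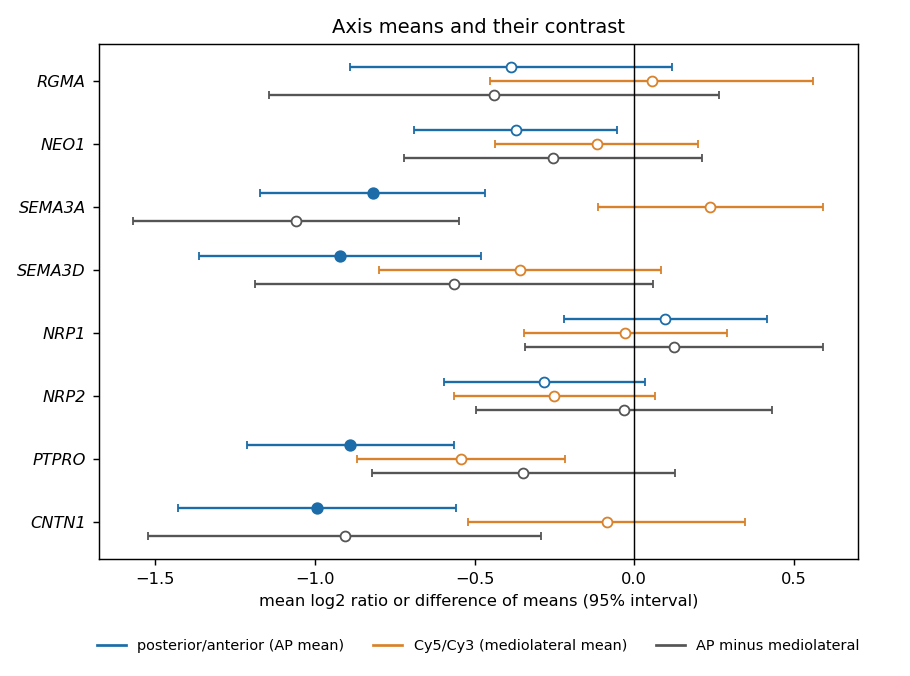
Means over both arrays of an axis and the difference of the axis means (horizontal axis, log2) for the 8 genes (vertical axis), with 95% intervals from the limma fit. Filled points passed the adjusted p threshold of 0.05. PTPRO, SEMA3A, SEMA3D and CNTN1 have filled points on the anteroposterior axis, and no gene has one on the mediolateral axis or in the contrast.

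Along the mediolateral axis none of the 8 genes passed, where 0.00758% of 26388 probes tested did. The furthest from 0 was PTPRO, with a mean log2 Cy5 over Cy3 ratio of -0.54 ± 0.15 (SE, n = 2 arrays, limma adjusted p = 0.406). SEMA3D followed at -0.36, NRP2 at -0.25 and SEMA3A at 0.24 (limma adjusted p from 0.680 to 0.723). NEO1, CNTN1, NRP1 and RGMA lay between -0.12 and 0.05. At an unadjusted p under 0.05 stood 1 of the 8, PTPRO, and 2170 of the probes.

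The difference of the axis means compares the signed Cy5 over Cy3 ratios of the axes, and a dye effect that a probe shows alike on all arrays cancels in it. No probe of 23446 passed in limma, a share of 0%, with 2084 at an unadjusted p under 0.05. SEMA3A, with an anteroposterior mean of -0.82 and a mediolateral mean of 0.24, differed by -1.06 ± 0.24 (95% interval -1.57 to -0.55, limma adjusted p = 0.290). CNTN1 differed by -0.91 (95% interval -1.52 to -0.29, limma adjusted p = 0.362). With the arrays taken by channel, these were the 2 of the 8 genes with an interval that leaves out 0. PTPRO differed by -0.35, with an interval from -0.82 to 0.13, and SEMA3D by -0.56, with an interval from -1.19 to 0.06. Both intervals hold 0, and both reach differences near the size of the anteroposterior means, so they do not show that the axes were alike for these genes. RGMA differed by -0.44, NEO1 by -0.25, NRP1 by 0.13 and NRP2 by -0.03, none passing.

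Since the mediolateral direction is not settled, the difference was also taken with the sign of those arrays turned, an alternative chosen after the data were seen, in which a dye effect adds up instead of cancelling. PTPRO then differed by -1.43 ± 0.22 (SE, limma adjusted p = 0.0257) and SEMA3D by -1.28 ± 0.29 (limma adjusted p = 0.0359), and both passed, where 2.67% of probes passed with a negative difference. CNTN1, at -1.08, did not pass (limma adjusted p = 0.0506), nor did SEMA3A, which was smaller than before at -0.58 (limma adjusted p = 0.136). NRP2 was at -0.53, NEO1 at -0.49, RGMA at -0.33 and NRP1 at 0.07. The turned difference is the sum of the axis means by channel, so a probe on the Cy3 side of both axes gives a larger negative value in it. Which mediolateral side is set against the posterior side is a choice of sign. Which of the 8 genes stand out therefore depends on that choice, and neither difference ranks the genes by how unlike the axes are.

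The change of the anteroposterior ratio from HH35 to HH37 was greatest for RGMA, which turned from the posterior to the anterior side. Its ratio fell by 1.32, and of 25477 probes measured on both arrays 0.373% fell further. Over all probes, 1.52% fell by at least 2-fold and 0.4% rose by as much. SEMA3D rose by 1.03, from -1.44 to -0.41, but this rests on a posterior signal under the background limit at HH37, and in the authors' deposited table its anterior over posterior ratio was 2.96 and then 2.67. CNTN1 changed by -0.36, PTPRO by -0.25, SEMA3A by 0.25, NRP1 by 0.22, NEO1 by 0.15 and NRP2 by -0.02. RGMA and NRP1 had ratios of opposite sign at the 2 stages, as did 32.4% of all probes. For RGMA the turn held with plain subtraction, median centring, the median of spot pixels and the value table, with ratios at HH35 from 0.29 to 0.41 and at HH37 from -0.74 to -1.19. With 1 array per stage the change was not tested, and the neuron markers moved the same way, from a median of -0.55 to -1.56. Over all probes, the ratios of the HH37 array correlated more with the mediolateral array of HH35 (r = 0.63) than with the anteroposterior array of HH35 (r = 0.43). On that mediolateral array RGMA was at 0.06. How much of the HH37 ratios is particular to the anteroposterior axis was not tested.

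**Figure D3:**
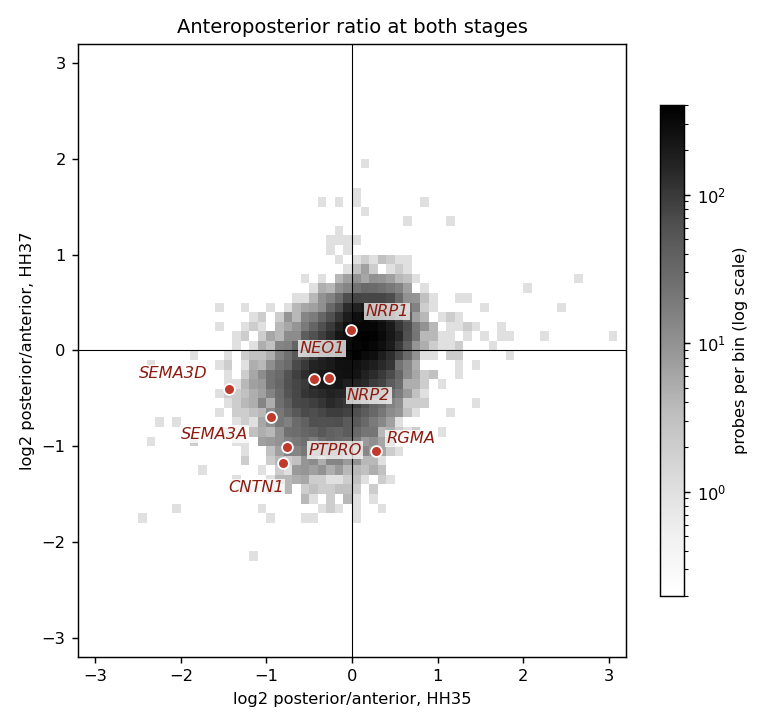
Log2 posterior over anterior ratio at HH35 (horizontal axis) and HH37 (vertical axis) of all probes measured on both arrays, as grey bins shaded by the number of probes on a log scale, with the 8 genes as red points. RGMA lies to the right of 0 and at -1.05 on the vertical axis, and SEMA3A, SEMA3D, PTPRO, CNTN1, NEO1 and NRP2 lie in the lower left, anterior at both stages.

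Along the mediolateral axis the ratio of CNTN1 fell by 0.95 between HH30 and HH35, from 0.39 to -0.56, and 0.606% of 26388 probes fell further. SEMA3A fell by 0.50, from 0.49 to -0.0094, and 6.01% of probes fell further. No gene changed by 2-fold, and the other 6 changed by -0.14 to 0.19, RGMA and NRP1 by 0.0058 and 0.0029. CNTN1 and SEMA3A had ratios of opposite sign at the 2 stages, as did 40.8% of probes, but SEMA3A was at 0.06 on the HH35 array in the value table and with the median of spot pixels, so its sign there is not settled. The median of the neuron markers went from 0.23 to -0.42 on the same arrays.

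The level of each gene, the log2 mean of both channels after normalisation across arrays, was compared with the gap between the arrays of HH35, which measured the same stage in differently cut tecta. Across 28076 probes that gap had an SD of 1.12. For 7 of the 8 genes the mediolateral array was the lower, the gap lying between -2.94 and -1.07. How many of all probes were lower on that array is not given here, so the count is not read as particular to these genes. The share of all probes with a lower gap was between 0.175% (CNTN1) and 12.6% (SEMA3D) for these 7. NRP1 was the exception, 1.08 higher. RGMA was at 13.43 at HH30, 14.11 and 12.54 at HH35 on the anteroposterior and mediolateral arrays, and 11.98 at HH37. The HH37 level was thus below both of HH35. It differed by -1.35 from their mean, less than the gap of the HH35 pair, -1.57. NEO1 was at 10.81 at HH30, 12.56 and 11.06 at HH35 and 9.36 at HH37, with both outer stages below the pair. Its HH37 level differed by -2.45 from the mean of HH35, more than the gap of the HH35 pair. The HH37 array was the dimmest, and the difference was not tested.

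SEMA3A was at 9.81 at HH30, 9.60 and 8.23 at HH35 and 9.12 at HH37, its HH30 level just above both of HH35. SEMA3D was at 7.79 at HH30, 8.23 and 7.15 at HH35 and 7.29 at HH37, and NRP2 at 11.67, 12.87 and 11.29, and 11.73, all within the HH35 pair. Level differences between stages of SEMA3D, NRP2, NRP1 and CNTN1 were therefore inside the spread of 1 stage. NRP1 was at 14.49 at HH30, 13.51 and 14.59 at HH35 and 14.52 at HH37. CNTN1 was at 11.05 at HH30, 12.57 and 9.63 at HH35 and 11.26 at HH37, and its gap at HH35 was larger than that of 97.7% of probes. PTPRO was at 10.37 at HH30, 11.97 and 10.74 at HH35 and 10.70 at HH37, with both outer stages just below the pair.

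**Figure D4:**
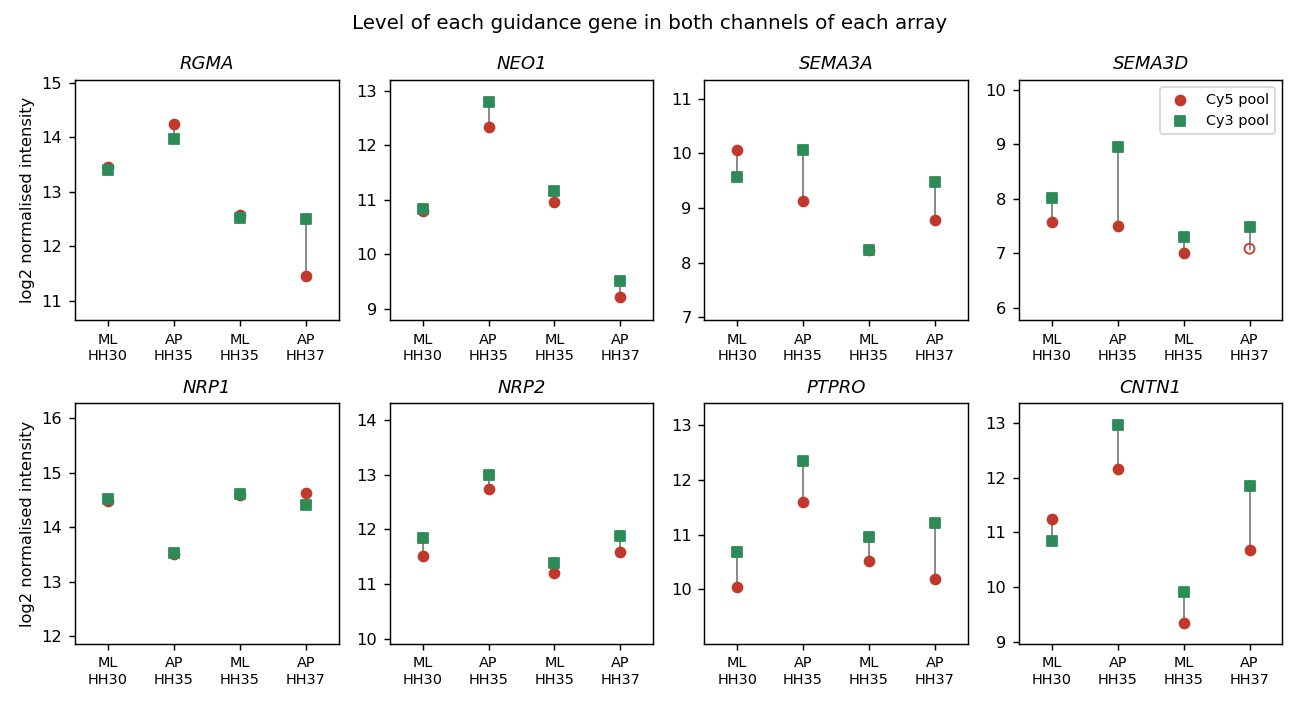
Log2 normalised intensity (vertical axis, each panel spanning the same range) of each of the 8 genes in the Cy5 pool (red circles) and Cy3 pool (green squares) of the 4 arrays (horizontal axis), a line joining the pools of 1 array. The open circle is SEMA3D at HH37, not well above background in Cy5. The arrays of HH35 differ in level for every gene, CNTN1 by 2.94, and for most genes by more than the pools of 1 array do.

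Likeness of pattern was measured as the Euclidean distance between the 4 log2 ratios of 2 genes, over 6829 genes with a symbol and the 4 arrays. With 4 points, this is a description. The nearest gene to RGMA was ATN1, atrophin 1, at a distance of 0.16, which stood at 0.29 at HH35 and -1.02 at HH37, followed by ARF6 at 0.22. The nearest to SEMA3A was PDS5B, a cohesin regulator, at 0.16, then NDNF, a secreted neuron-derived factor, at 0.24. SEMA3D was nearest to RTN4R, the Nogo receptor, at 0.23, with ratios of -1.36, -0.50, -0.50 and -0.10 from the anteroposterior arrays to the mediolateral ones. PTPRO was nearest to CHN1, a Rac regulator, at 0.18, and CNTN1 to YWHAH, a 14-3-3 protein, at 0.10. NEO1, NRP1 and NRP2, whose ratios were small, had neighbours at 0.05 (CWF19L2), 0.08 (AMDHD2) and 0.09 (AP5M1).

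Among the 8 genes themselves the closest pair was NEO1 and NRP2, at a distance of 0.33, both receptors with small ratios. SEMA3A and CNTN1 were 0.75 apart, sharing anterior ratios and the Cy5 side at HH30, and SEMA3D and PTPRO 0.94, sharing the Cy3 side of all 4 arrays. RGMA and its receptor NEO1 were 1.08 apart. RGMA and SEMA3D were the furthest apart, at 1.92.

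The other genes of these systems were read from 8 lists of pathway members, which held 80 genes with a probe besides the 8. Of the 68 tested along the anteroposterior axis, 3 were called higher anteriorly in limma and 0 posteriorly. That is 4.41% beside the 5.1% of all probes, so the wider pathways held no larger share of calls than the array. Their median mean ratio was -0.19, beside -0.02, and 32 of them were anterior and 12 posterior at both stages. The anterior share was 47.1%, beside 35.5% of all tested probes. None of 65 passed along the mediolateral axis.

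The 3 called genes belonged to 3 lists. CRMP1, a collapsin response mediator that carries semaphorin signals to the cytoskeleton, stood at -0.82 at HH35 and -0.95 at HH37, with a mean of -0.88 ± 0.14 (SE, n = 2 arrays, limma adjusted p = 0.0131). PTPRG, a receptor phosphatase that binds contactins, was at -0.58 and -0.92, with a mean of -0.75 (limma adjusted p = 0.0227). NRCAM, an adhesion molecule of the L1 family, was at -0.41 and -0.90, with a mean of -0.66 (limma adjusted p = 0.0372).

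In the list of RGM and neogenin signalling 0 of 17 tested genes passed, with a median of -0.28. NTN1, netrin 1, another neogenin ligand, had the highest mean of that list, 0.93, from 1.75 at HH35 and 0.10 at HH37 (limma adjusted p = 0.0660). Its other probe gave -0.02 and -0.04, so the probes disagree. BMP4, a growth factor of the family for which RGM proteins act as co-receptors, was at 0.42 and 0.12. The kinase ROCK2, at -0.57 and -0.49 with -0.02 and -0.06 in its other probe, and LMO4, at -0.32 and -0.67, were the lowest.

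The other class 3 semaphorins did not share the anterior ratios of SEMA3A and SEMA3D at both stages as a group. Of 4 tested, 0 passed, and their median mean was 0.01. SEMA3E was at -0.55 and -0.26, its posterior signal under the background limit at either stage, and SEMA3F at 0.48 and -0.73. SEMA3B was at 0.37 and, with its posterior signal under the limit at HH37, -0.07. SEMA3G was at 0.16 and 0.30, its other probes giving 0.57 and 0.02 at HH35 and 0.37 and -0.03 at HH37. Among 7 semaphorins of other classes 0 passed, from SEMA4G at 0.22 and 0.49 to the membrane-bound SEMA6D at -0.46 and -0.90 (limma adjusted p = 0.0949). None of 5 tested genes for plexins and other receptors passed, PLXNA1, a partner of neuropilins, being lowest at -0.29 and -0.57. The other probes of PLXNA1 lay on the posterior side at HH35, so its probes disagree.

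Among 13 tested genes that act inside the cell after semaphorin binding, CRMP1 alone passed. Its relative DPYSL2, also called CRMP2, was at -0.23 at HH35 and -1.60 at HH37, with a mean of -0.91 (limma adjusted p = 0.0518), and DPYSL4 was at 0.19 at HH35, its posterior signal being under the background limit at HH37. Of 9 tested receptor phosphatases PTPRG alone passed, with PTPRZ1 at -0.37 and -0.79, PTPRK at 0.38 and 0.18 (its other probe giving -0.42 at HH35) and PTPRJ at 0.05 and 0.39. Of 11 tested contactins and L1-type molecules NRCAM alone passed. CNTN5 stood at 0.20 and 0.50, and CNTN3 at 0.32 and 0.26, while the other probe of CNTN3 gave 0.04 and -0.09. The neural adhesion gene NCAM1 was at -0.34 and -0.68. Of the Slit and Robo genes 2 were tested and 0 passed, SLIT1 standing at 0.62 and -0.81 and ROBO1 at 0.02 and -0.61.

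**Figure D5:**
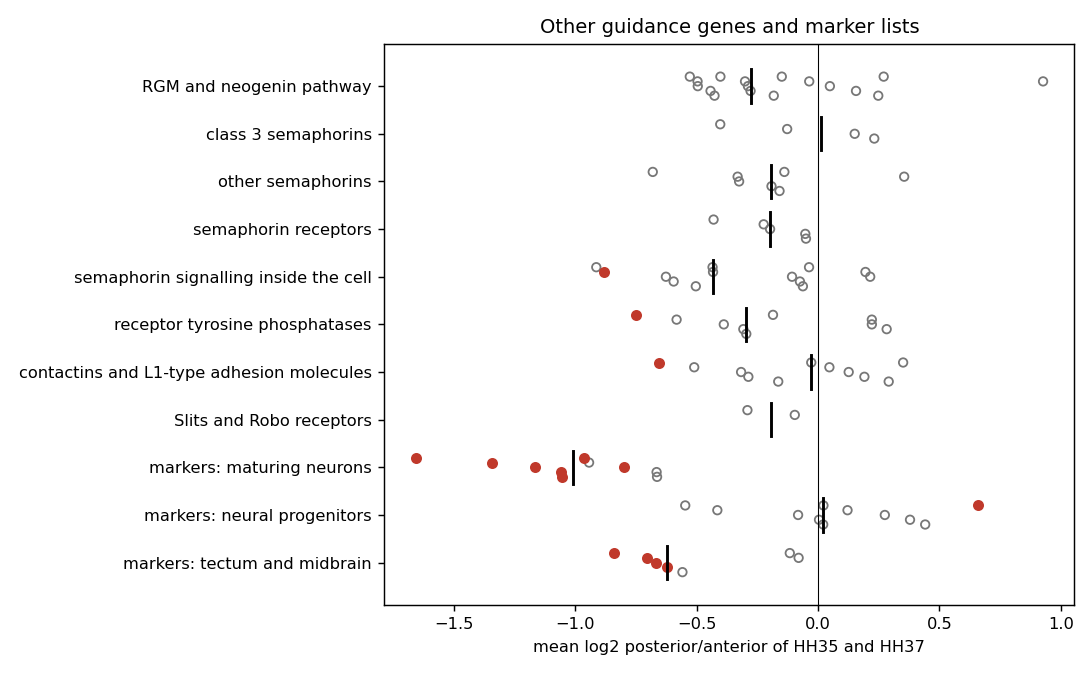
Mean log2 posterior over anterior ratio of HH35 and HH37 (horizontal axis) of the genes of 8 pathway lists, without the 8 genes above, and of 3 marker lists (vertical axis), 1 point per gene. Filled red points passed the adjusted p threshold of 0.05 in limma and black bars are list medians. The maturing neuron list has 7 filled points and a median of -1.01, and the pathway lists hold 3 filled points in all.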

How the data were processed

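RNA of 4 array hybridisations was measured. Spot intensity is in linear scanner units and not normalised, and saturation is the percent of pixels at the limit, both as deposited, per the file headers. Agilent Feature Extraction is named in the submitters' processing notes, while the deposited columns are those of GenePix. The authors also deposited a ratio for each probe on each array, whose normalisation is not given in the sources used here, and a value table with its log2.

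From the intensities, background was corrected by normexp (offset 50) and ratios were normalised by loess (span 0.3, control spots not weighted in) with R 4.3.3 and limma 3.58.1. A probe counted as well above background where mean foreground exceeded median background by 2.6 background SDs in either channel and the spot was found. Levels were normalised across arrays by the Aquantile method. The limma fit took probes measured on at least 2 arrays, tested an axis where both its arrays measured the probe, and adjusted by Benjamini-Hochberg at 0.05. It was also run on simulated independent noise with differences added alike to both arrays of an axis. That simulation held no dye effect and no stage difference, so it checks the code and not how well the fit suits these arrays. P-values measure the spread between arrays of different stages, pooled over both axes.

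A table of GRCg7b genes, used for names and gene order since the files name no build, left 31984 probes without a symbol, and 42 with conflicting names were not named. Genes could be named if they were members, called genes of a pathway list, or among its 2 highest and 2 lowest by anteroposterior mean, and some of these were left out. Marker lists are given by counts and medians with examples, of which MBP, HBE1, DMBX1, GATA2, FABP7 and SLC1A3 were chosen after their values were seen. Members and lists were chosen with earlier results of these data known. The turned value table correlated with the ratios computed here with r from 0.724 to 0.848 over 41824 probes, and its median at HH37 on the anteroposterior array was -0.13. The medians of the other arrays lay between -0.0172 and 0. The alternatives tried were plain background subtraction, median centring, the value table, filters on dim probes, the spot median, the brightest probe, another variance model, another fold threshold and leaving out each array. Turning the mediolateral sign was added after the data were seen. Tables and figures were made with pandas 2.3.3, numpy 2.4.6 and matplotlib 3.10.9 under Python 3.11.15.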

Additional observations from a re-analysis of the deposited data

Results flagged for a closer look

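In 4 cases the ratio of a gene lay on opposite sides of 0 at the 2 stages of an axis, each stage being 1 array, so the difference was not tested. RGMA changed by -1.32 from HH35 to HH37 along the anteroposterior axis, from 0.28 to -1.05. NRP1 changed by 0.22 on the same axis, from -0.01 to 0.21, and its ratio at HH35 changed sign with the processing. Along the mediolateral axis SEMA3A changed by -0.50 from HH30 to HH35 and CNTN1 by -0.95. The correlation of all ratios between the anteroposterior arrays was 0.43, and between the mediolateral ones 0.25, over 25477 and 26388 probes. It was higher, at 0.63 over 25482 probes, between the anteroposterior array of HH37 and the mediolateral array of HH35, and 0.35 between the arrays of HH35.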

How the results depend on the processing

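Limma called 1421 probes along the anteroposterior axis, against 9 with plain subtraction, 5565 with median centring, 0 from the value table (5568 at an unadjusted p under 0.05) and 655 with no filter on dim probes, and 589 to 1597 without 1 array in turn. The mediolateral count of 2 was 0 with plain subtraction, 0 from the value table and 5 with an intensity trend and robust variance, and 1 to 11 without 1 array. The contrast count of 0 was 0 to 17 without 1 array, and 969 with the mediolateral sign turned. Counts of probes past 2-fold on the anteroposterior arrays of HH35 and HH37 were 261 and 498, against 708 and 1151 with plain subtraction, 739 and 1997 with median centring, 1113 and 2386 from the value table and 2712 and 3034 at 1.5-fold. On the mediolateral arrays of HH30 and HH35 they were 96 and 28, against 400 and 200 with plain subtraction, 926 and 742 from the value table and 780 and 647 at 1.5-fold. The share in the Cy3 pool moved at HH30 from 18.8% to 51.8% with plain subtraction, 71.0% in the value table and 32.3% with median centring, and at HH35 on the mediolateral array from 28.6% to 67.5%, 64.0% and 34.4%. With median centring it rose from 80.8% to 95.8% on the anteroposterior array of HH35, and in the value table it was 75.2% at HH37, against 473 of 498 probes here.

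Of the tests of the 8 genes under these alternatives, 267 kept direction and side of the threshold, 13 lost their call, 4 gained one and 10 changed sign. All lost calls fell on the 4 anteroposterior ones, and most tests that kept their side were not called to begin with. The filters on dim probes, the brightest probe and the other variance model left a gene's ratios as they were. These could not change a direction. Without 1 array in turn the anteroposterior mean ranged from -1.05 to 0.28 for RGMA and from -0.0131 to 0.21 for NRP1, the signs turning without HH37. The mediolateral mean ranged from -0.0094 to 0.49 for SEMA3A, turning without HH30, and from -0.56 to 0.39 for CNTN1, turning without HH35. The contrast ranged from -1.10 to 0.22 for RGMA, turning without the anteroposterior HH37 array, and from -0.114 to 0.0520 for NRP2, turning without the mediolateral HH35 array. With median centring NRP1 turned to 0.21 on the mediolateral axis and to -0.0274 in the contrast. The contrast of NRP2 turned to 0.0442 with plain subtraction and 0.0709 in the value table. With both channels required above background, SEMA3D could not be fitted on the anteroposterior axis or in the contrast. Fits without an array rest on fewer samples, and the cause of the other changes was not tested. Each ratio compares the Cy5 and Cy3 pools of 1 array directly. No pairing across arrays was possible because each group is 1 array and the labels carry no replicate numbers. With 1 array per axis and stage, no slide effect could be fitted. Dim signal limits SEMA3D most, whose net intensity was 42 in the posterior pool of HH37.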
